A study of Mus musculus with 28 samples.

Results

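Corticosterone-treated DC2 cells were compared with vehicle-treated cells 3 days after the hormone had been withdrawn. DC2 is an immortalized epithelial line from the distal caput epididymidis of the mouse, the segment in which sperm begin to mature. The comparison takes the 4 corticosterone and the 4 vehicle libraries labelled day 6, which are 8 of the 28 libraries of the series, and covers all 13128 genes with a symbol. Confluent cells on collagen-coated plates received 500 ng/ml corticosterone in ethanol, or the 0.1% ethanol alone, from day 0 to day 3. Medium was then replaced in both groups at day 3, so that day 6 cells had 3 days without added hormone, in medium that held serum in both groups. Libraries of stranded mRNA were also made from untreated cells at day 0 and from both groups at days 3 and 9, with 4 in each of the 7 groups. Whether replicates came from separate cultures is not stated in the labels, so p-values measure only the spread between these libraries. In bulk RNA, a change in the number of cells of a kind and a change in RNA per cell cannot be told apart.

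Corticosterone, the main glucocorticoid of rodents, crosses the membrane and binds the glucocorticoid receptor, which is held ready by heat shock protein chaperones. The bound receptor moves to the nucleus, where it activates genes through DNA elements of its own and restrains others, among them many inflammatory genes. In the epididymis, epithelial cells secrete proteins and extracellular vesicles that reach passing sperm, and glucocorticoid signalling in this epithelium has been studied as a route by which stress may alter sperm.

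Markers were examined first. Of 13 general epithelial markers 11 were measured, and their summed level was 87.6 to 94.8 CPM (read counts scaled to library size) in corticosterone libraries and 95.8 to 98.0 CPM in vehicle libraries. Of these 4 rose and 3 fell, where 47.2% of all genes were called in either direction, with a median difference of 0.44 on the log2 scale (0.10 without corticosterone replicate 6). Of 13 markers of epididymal principal cells, among them Lcn5, Crisp1 and Gpx5, none was among the genes tested, so the data give no marker value for that differentiated cell type. Fibroblast markers (5 of 9 measured) summed to 68.1 to 75.4 CPM with corticosterone and 69.5 to 73.9 CPM with vehicle. These sums hold opposite changes: 2 of the 5, among them Dcn, rose and 3 fell, with a median of -1.20. The basal cell list (2 of 5) summed to 64.1 to 80.1 and 39.6 to 49.1 CPM in corticosterone and vehicle libraries, and the single clear cell marker measured (1 of 6), Car2, to 0.867 to 1.14 and 0.381 to 0.643 CPM. Smooth muscle markers (2 of 6) summed to 2.14 to 4.24 CPM with corticosterone and 1.26 to 1.88 CPM with vehicle, and endothelial markers (2 of 7) to 5.82 to 12.5 CPM and 1.69 to 2.24 CPM. The endothelial difference lay in the VEGF receptor gene Kdr, which rose by 5.54 ± 0.38 (2.96 on the log2(CPM + 1) scale), while Pecam1, named after its values were seen, was at -0.10 ± 0.33. Leukocyte markers (2 of 11) summed to 10.3 to 13.9 CPM with corticosterone and 49.1 to 57.6 CPM with vehicle, and Ptprc, which defines leukocytes, was not among the genes tested.

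A single corticosterone library, replicate 6, stood nearer to vehicle than the other 3. Over the 478 genes that were at least 2-fold higher with corticosterone at day 3, in other libraries, its median excess over the day 6 vehicle mean was 1.08 on the log2 scale, against 1.39 to 1.45 in replicates 1, 3 and 5. It was the corticosterone library closest to vehicle for 382 of these genes (79.9%). Over the 428 genes at least 2-fold lower at day 3 its median was -1.13, against -1.25 to -1.43, and it was closest for 252 (58.9%). Each result below was also computed without it. The value is given where that changed the call of a named gene, or moved a count or a called difference by over 1.5 times, and the other list counts moved by at most 2 genes.

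**Figure D1:**
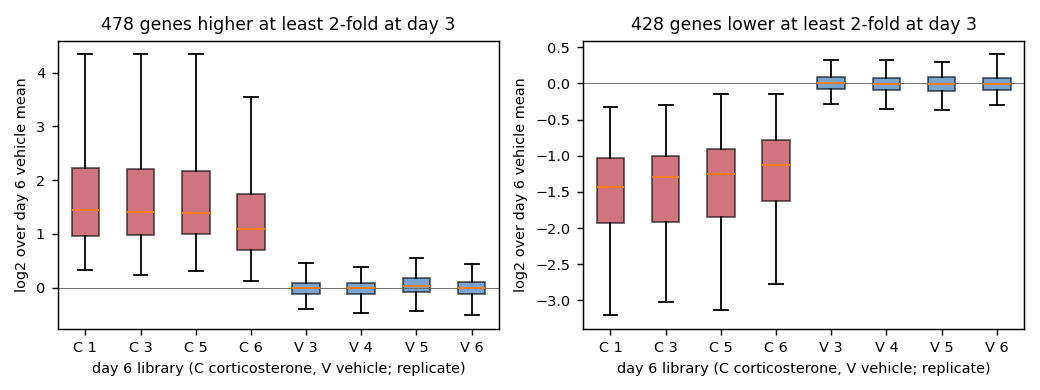
Response of each day 6 library over genes that differed at least 2-fold at day 3: log2 difference of the library from the mean of the 4 day 6 vehicle libraries, with boxes for quartiles, the centre line for the median and whiskers for the 5th and 95th percentiles over genes. Corticosterone replicate 6 has a median of 1.08 over the 478 higher genes and -1.13 over the 428 lower genes, the smallest of the 4 corticosterone libraries in both panels.

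At 3 days after withdrawal the difference was still broad. At a Benjamini-Hochberg adjusted p under 0.05 in limma, 6194 genes (47.2% of those tested) were called, of which 3002 (22.9%) were higher with corticosterone and 3192 (24.3%) were lower. A difference of at least 2-fold was found for 441 higher genes (3.36%) and 549 lower genes (4.18%). A list with 22.9% of its genes higher and 24.3% lower is therefore at the share over all genes. The median over all genes was -0.00157 on the log2 scale. The 4 libraries of one group lay wholly above those of the other for 6337 genes (48.3%). Without corticosterone replicate 6, 435 of the 441 and 540 of the 549 genes were still called. Values below are log2 CPM as deposited, and differences are corticosterone minus vehicle at day 6 on that log2 scale ± SE. The SE comes from 1 fit over all 7 groups, which share 1 estimate of the spread of each gene, and not from the day 6 libraries alone. A gene that rose or fell was higher or lower with corticosterone than with vehicle, unless a change between days is named. Single libraries are given in the order of replicates 1, 3, 5 and 6 for corticosterone and 3, 4, 5 and 6 for vehicle.

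Targets of the receptor remained high while the receptor gene itself was low. Among 29 measured receptor targets there were 22 rises, 2 falls and 5 without a call, with a median of 1.02 (1.51 at day 3 and -0.19 at day 9). The day 6 effect was more negative than the day 3 effect for 11 of the 29 and more positive for 2. Over all genes, 9.11% had effects that differed between these days in either direction. Without replicate 6, 1 target was lower. Sgk1, a kinase gene induced by serum and glucocorticoids that acts on sodium channels, was at 9.42, 9.25, 9.05 and 7.20 log2 CPM in corticosterone libraries, against 3.46, 3.95, 3.74 and 4.01 in vehicle libraries. Replicate 6 was the lowest corticosterone library by a wide margin, but the groups did not overlap. The difference was 4.94 ± 0.28 (adjusted p = 1.1e-13 in limma), or 5.45 without replicate 6. The SD of Sgk1 was 1.03 in day 6 corticosterone libraries and 0.13 to 0.26 in the other groups. The shared SE therefore understates its spread with corticosterone at day 6. Fkbp5, which encodes a cochaperone that lowers the receptor's affinity for hormone, was at 9.16, 9.19, 9.13 and 8.32 log2 CPM with corticosterone and 6.49, 6.34, 6.20 and 6.34 with vehicle, and rose by 2.61 ± 0.12. Glul, glutamine synthetase, rose by 3.17 ± 0.16 and the clock gene Per1 by 1.66 ± 0.08, each with all 4 corticosterone libraries above the vehicle libraries.

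Of the 17 receptor and chaperone genes, 3 rose, 8 fell and 6 were not called. Nr3c1, the receptor gene, was at 7.03, 7.08, 7.10 and 7.22 log2 CPM with corticosterone and 8.09, 8.11, 8.01 and 8.16 with vehicle, with no overlap and a difference of -0.98 ± 0.10 (adjusted p = 6.8e-09). The chaperone genes that fell were Hsp90ab1 (-0.42 ± 0.05), Hsp90aa1 (-0.19 ± 0.05), Stip1 (-0.33 ± 0.05), Ptges3 (-0.34 ± 0.06), Ppid (-0.28 ± 0.06), Hspa4 (-0.17 ± 0.06) and Dnaja1 (-0.18 ± 0.05). The corepressor gene Ncor1 (0.35 ± 0.08), the phosphatase gene Ppp5c (0.23 ± 0.08) and Hsd11b2, whose enzyme inactivates corticosterone (0.45 ± 0.16), rose, and the call of Hsd11b2 ended without corticosterone replicate 6 (0.24) or vehicle replicate 3 (0.40), and in a fit of the day 6 groups alone (0.45, adjusted p = 0.0659). The call of Hspa4 ended without corticosterone replicate 1 or 3 or vehicle replicate 5 (-0.14, -0.13 and -0.14), and that of Ppp5c without corticosterone replicate 1 or 3 or vehicle replicate 3 (0.20, 0.22 and 0.18). The other members were not called, with Nr3c2, the mineralocorticoid receptor gene, at 0.01 ± 0.27, Fkbp4 at -0.07 ± 0.06, Hspa8 at -0.01 ± 0.06, and the coactivator genes Ncoa1, Ncoa2 and Crebbp at 0.25 ± 0.13, 0.31 ± 0.14 and 0.27 ± 0.18. Ncoa2 was called without corticosterone replicate 6 (0.38) or vehicle replicate 4 (0.40) and with library weights (0.30), and Ncoa1 with library weights (0.31) and with the day 6 groups alone (0.25).

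The receptor binds a palindrome of a 6-base half-site, and the promoters of the genes tested were searched for it. The exact palindrome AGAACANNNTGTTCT was present in 1 of 12887 promoter windows (0.00776%; 250 bases before to 50 after a start, RefSeq, GRCm38.p6), covering 10074 of the genes tested. That window was 1 of the 6 of Sgk1. It is shown because it is the sole exact match, with the palindrome in capitals, starting 189 bases before the annotated start, on chr10:21993640-21993939 (plus strand).
Sgk1: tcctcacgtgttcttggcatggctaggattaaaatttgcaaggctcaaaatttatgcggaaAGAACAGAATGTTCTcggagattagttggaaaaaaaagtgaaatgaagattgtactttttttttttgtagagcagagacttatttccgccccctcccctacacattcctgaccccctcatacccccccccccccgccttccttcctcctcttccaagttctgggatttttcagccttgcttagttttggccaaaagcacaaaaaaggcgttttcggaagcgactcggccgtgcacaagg
The half-site AGAACA alone, on either strand and including the palindrome, occurred in 12.8% of all windows and in 5 of the 34 windows (14.7%) of receptor targets.

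The 15 largest rises, shown for every library in the plot of the largest changes, included secreted proteins of growth factor handling and matrix. Igfbp3, an insulin-like growth factor binding protein, was at 4.61, 4.71, 4.49 and 3.87 log2 CPM with corticosterone and 0.36, 0.30, 0.37 and -0.43 with vehicle, and rose by 4.27 ± 0.16. Ogn, a small leucine-rich proteoglycan of the matrix, was at 5.60, 5.46, 5.59 and 4.86 log2 CPM with corticosterone and 1.31, 1.30, 0.92 and 1.36 with vehicle, and rose by 4.16 ± 0.13. Pappa, a protease that cleaves insulin-like growth factor binding proteins, was at 5.30, 5.09, 5.04 and 4.26 log2 CPM with corticosterone and 1.34, 1.52, 1.11 and 1.08 with vehicle, and rose by 3.66 ± 0.19. In these genes replicate 6 was the lowest corticosterone library. It lay above every vehicle library, which the choice of the largest rises required. The differences of Igfbp3, Ogn and Pappa were 2.11, 2.67 and 2.26 on the log2(CPM + 5) scale. Sytl5, a synaptotagmin-like gene of vesicle transport, rose by 3.75 ± 0.25, and Eva1a, linked to autophagy, by 3.78 ± 0.40. On the log2(CPM + 5) scale Sytl5 was at 1.45 and Eva1a at 1.53. Folh1 and Zbtb16 had the largest differences, but their vehicle libraries were near the lowest value of the table (-4.15, -4.15, -1.02 and -2.80 and -3.68, -3.28, -2.20 and -3.62 log2 CPM), so that the size depends on the offset used for low counts: on the log2(CPM + 1) scale it was 6.51 for Folh1 and 5.79 for Zbtb16.

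The largest falls included genes of epithelial adhesion, steroid metabolism and the antiviral response. Srd5a2, the steroid 5-alpha reductase that makes dihydrotestosterone from testosterone, was at -0.14, 0.05, 0.25 and 0.39 log2 CPM with corticosterone and 3.13, 3.04, 3.01 and 3.16 with vehicle, and fell by 2.95 ± 0.12 (adjusted p = 3.3e-16). Itgb6, the beta subunit of an epithelial integrin that activates TGF-beta, was at 0.97, 0.79, 1.10 and 1.09 log2 CPM with corticosterone and 3.98, 3.93, 4.07 and 4.08 with vehicle, and fell by 3.02 ± 0.07. Tnnt2, a troponin gene, fell by 3.04 ± 0.27. On the log2(CPM + 5) scale these genes were at -1.14, -1.60 and -1.16. Samd5 (-3.03 ± 0.18) and the antiviral gene Rsad2 (-2.96 ± 0.18) also fell, and were at -2.33 and -1.35 on the log2(CPM + 5) scale. All 15 of the largest falls kept their call without replicate 6.

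**Figure D2:**
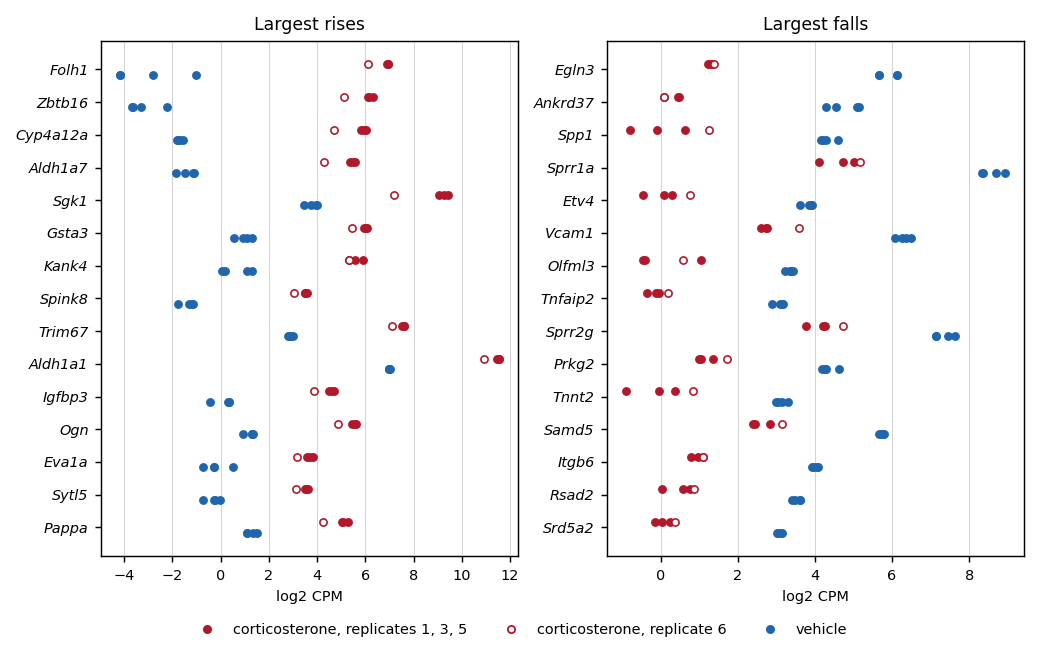
Level in log2 CPM of the 15 largest rises and 15 largest falls in every day 6 library (red for corticosterone, drawn above; blue for vehicle; open red circles for corticosterone replicate 6). The groups do not overlap in any of these genes, since that was required for their choice. Replicate 6 is often the corticosterone library nearest to vehicle, as in Sgk1 at 7.20 log2 CPM.

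At day 6 most genes of the hypoxia response and of glycolysis were lower with corticosterone than with vehicle. In vehicle cells most members of both lists had risen since day 3. In corticosterone libraries the mean level of the hypoxia list was 5.10 log2 CPM at day 3 and 5.05 at day 6. That of the glycolysis list was 7.08 and 7.13. Hypoxia-inducible factors bind DNA when oxygen is low and switch on glycolysis, and prolyl hydroxylases of the Egln family mark them for destruction when oxygen is present. Of 32 hypoxia response genes 24 fell, 3 rose and 5 were not called, with a median of -0.66, and of 22 glycolysis and lactate genes 16 fell, 4 rose and 2 were not called, with a median of -0.88. At day 3 the medians were 0.13 and 0.11. On that day 12 hypoxia and 8 glycolysis genes were called higher and 9 and 4 lower, where 23.3% of all genes were higher and 25.6% lower. The effect at day 6 was more negative than at day 3 for 24 of the 32 and 14 of the 22 genes, where 9.11% of all genes had effects that differed between these days in either direction. From day 3 to day 6 in vehicle libraries, 27 and 18 members rose, with medians of 0.93 and 1.02, where 24.0% of all genes changed. That comparison uses the same day 6 vehicle libraries as the comparison with corticosterone. Oxygen in the cultures was not analysed here.

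Egln3 was at 1.23, 1.27, 1.32 and 1.38 log2 CPM in day 6 corticosterone libraries, against 5.67, 5.67, 6.12 and 6.12 in day 6 vehicle libraries, while vehicle means were 1.41 at day 0, 1.89 at day 3 and 7.32 at day 9. Its corticosterone means were 1.44 at day 3, 1.30 at day 6 and 4.19 at day 9. Ankrd37, an ankyrin repeat gene, was at 0.46, 0.08, 0.49 and 0.10 log2 CPM with corticosterone and 4.29, 4.54, 5.15 and 5.09 with vehicle, and fell by 4.48 ± 0.24. Pdk1, a kinase that inhibits pyruvate dehydrogenase, was at 4.77, 4.93, 4.93 and 4.85 log2 CPM with corticosterone and 7.23, 7.40, 7.43 and 7.54 with vehicle, a difference of -2.53 ± 0.12, after a day 3 difference of 0.06. In these 3 genes treated levels at day 6 lay near those of day 3, and vehicle levels had risen.

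Other members differed in size and direction. Bnip3, a mitophagy receptor, fell by 1.95 ± 0.13, and the mitochondrial cell death gene Fam162a also fell (-2.20 ± 0.15), with day 3 differences of 0.84 and 0.33. P4ha1, a collagen prolyl hydroxylase, fell by 1.81 ± 0.08, as did Egln1 (-1.21 ± 0.08). Ndrg1, a stress-responsive gene, was the member with the smallest p among those that rose, by 1.30 ± 0.06. Adm, the vasodilator adrenomedullin, was at 2.50, 3.22, 2.84 and 1.51 log2 CPM with corticosterone and 2.57, 2.59, 3.23 and 3.36 with vehicle, and was not called (-0.42 ± 0.35, or -0.09 without corticosterone replicate 6), after a rise of 4.35 at day 3. Ak4, an adenylate kinase of mitochondria named after its values were seen, was at -2.61, -1.27, -2.17 and -3.38 log2 CPM with corticosterone and 3.32, 3.87, 3.70 and 3.98 with vehicle, a difference of -6.08 ± 0.61, or -3.54 on the log2(CPM + 1) scale, since the corticosterone libraries lie near the lowest value. Of the 14 oxygen sensing genes, 4 rose and 4 fell. Hif1a, also named after its values were seen, was at -0.11 ± 0.06 and was not called, but was called lower with library weights (-0.14, adjusted p = 0.00846). Epas1, its paralog, rose by 3.96 ± 0.39 over a vehicle level near the lowest value (1.66 on the log2(CPM + 1) scale), and Cited2, which competes with these factors for a coactivator, rose by 0.86 ± 0.08.

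Among enzymes of glycolysis, Ldha, which makes lactate, was at 7.52, 7.53, 7.60 and 7.63 log2 CPM with corticosterone and 9.66, 9.77, 9.96 and 9.85 with vehicle, with no overlap and a difference of -2.24 ± 0.08 (adjusted p = 3e-17). Pkm was at 9.47, 9.5, 9.4 and 9.56 log2 CPM with corticosterone and 10.90, 10.95, 10.99 and 11.02 with vehicle, and fell by 1.48 ± 0.05. The vehicle means of Ldha were 9.12, 7.89, 9.81 and 10.62 log2 CPM at days 0, 3, 6 and 9, so its day 3 level was the lowest of the vehicle series. The corticosterone means of Ldha were 7.44, 7.57 and 9.13 log2 CPM at days 3, 6 and 9. Pgk1 fell by 1.67 ± 0.09, as did the phosphofructokinase gene Pfkl (-1.80 ± 0.10). Summed over the list, glycolysis genes took 0.642 ± 0.0110% of CPM with corticosterone and 1.42 ± 0.104% with vehicle (SD, n = 4). The summed share of the hypoxia list overlapped between the groups, at 0.478 ± 0.0284% of CPM with corticosterone and 0.495 ± 0.0364% with vehicle. The lactate dehydrogenase gene Ldhb, named after its values were seen, rose by 1.41 ± 0.12.

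Hypoxia-inducible factors recognise a short core that can read ACGTG. Windows of 4 genes picked by name from these lists are shown, with ACGTG in capitals on either strand. All 4 hold a match, so they are not a sample of the lists, in which many windows hold none. ACGTG was present in 24.9% of all windows, in 19 of 34 (55.9%) of the hypoxia list and in 19 of 36 (52.8%) of the glycolysis list, which overlap in members. For Ldha 1 of 2 windows is shown, chosen for its number of matches, and Egln3, Ankrd37 and Pgk1 have 1 window each. In Ldha 2 pairs of matches overlap, each within CACGTG, and its 5 matches start 145, 144, 48, 47 and 34 bases before the start.
Egln3 (chr12:54203825-54204124, minus strand): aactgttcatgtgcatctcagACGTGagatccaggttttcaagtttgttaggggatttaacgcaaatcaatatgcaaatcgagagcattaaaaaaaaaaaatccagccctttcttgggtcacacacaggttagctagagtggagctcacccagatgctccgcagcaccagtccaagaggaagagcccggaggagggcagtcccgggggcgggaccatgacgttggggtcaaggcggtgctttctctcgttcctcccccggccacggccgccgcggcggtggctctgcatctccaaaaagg
Ankrd37 (chr8:45999801-46000100, minus strand): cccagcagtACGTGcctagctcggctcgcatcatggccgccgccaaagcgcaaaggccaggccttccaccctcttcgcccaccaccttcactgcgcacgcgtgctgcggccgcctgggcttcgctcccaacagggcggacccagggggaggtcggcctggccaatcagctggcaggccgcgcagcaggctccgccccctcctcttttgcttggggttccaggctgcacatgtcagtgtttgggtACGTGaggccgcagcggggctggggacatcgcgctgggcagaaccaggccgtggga
Ldha (chr7:46845554-46845853, plus strand): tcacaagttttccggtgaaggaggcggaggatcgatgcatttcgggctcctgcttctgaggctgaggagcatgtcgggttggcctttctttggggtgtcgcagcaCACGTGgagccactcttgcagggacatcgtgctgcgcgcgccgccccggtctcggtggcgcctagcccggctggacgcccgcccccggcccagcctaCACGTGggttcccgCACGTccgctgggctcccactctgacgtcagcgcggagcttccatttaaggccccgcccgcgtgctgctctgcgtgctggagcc
Pgk1 (chrX:106186850-106187149, plus strand): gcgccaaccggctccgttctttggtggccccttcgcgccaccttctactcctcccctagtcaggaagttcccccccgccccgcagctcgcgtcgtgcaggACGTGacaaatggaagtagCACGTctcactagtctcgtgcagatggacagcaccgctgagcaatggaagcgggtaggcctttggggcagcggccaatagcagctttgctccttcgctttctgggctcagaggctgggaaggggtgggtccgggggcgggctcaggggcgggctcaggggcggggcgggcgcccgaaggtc
Egln3 and Pgk1 hold 1 and 2 matches and Ankrd37 holds 2. A match is a description of the letters and not evidence that a factor was bound.

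**Figure D3:**
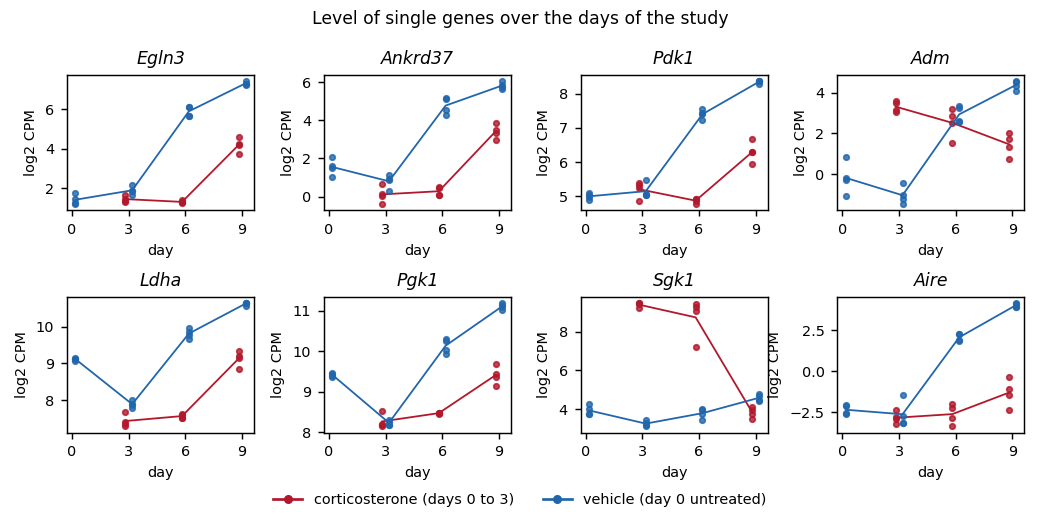
Level in log2 CPM of 8 genes (Egln3, Ankrd37, Pdk1, Adm, Ldha, Pgk1, Sgk1 and Aire) over days 0, 3, 6 and 9, with points for libraries, lines for means, corticosterone in red and vehicle in blue, and day 0 untreated. Egln3, Ankrd37, Pdk1, Ldha and Pgk1 differ less between the groups at day 3 than at day 6, when vehicle is higher. At day 3 the corticosterone mean is already lower in Egln3 (1.44 against 1.89), Ankrd37 (0.12 against 0.80) and Ldha (7.44 against 7.89). Sgk1 falls in corticosterone libraries between days 6 and 9.

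Genes of mitochondrial respiration rose almost without exception. The respiratory complexes pass electrons to oxygen and drive ATP synthase, and their subunits are encoded partly by the mitochondrial genome. All 36 measured nuclear genes of complex I rose (median 0.59, 35 without replicate 6), as did 34 of 35 genes of complexes III to V (median 0.69) and 25 of 26 of the tricarboxylic acid cycle (median 0.57). Ndufb8, of complex I, rose by 0.74 ± 0.07, the cytochrome c gene Cycs by 0.98 ± 0.07, and Pdha1, of pyruvate dehydrogenase, by 0.90 ± 0.04. Cycs was at 7.78, 7.78, 7.80 and 7.61 log2 CPM with corticosterone and 6.67, 6.77, 6.83 and 6.79 with vehicle. All 4 corticosterone libraries lay above vehicle for 35 of the complex I genes.

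Mitochondrially encoded transcripts rose as well, with 10 of 11 called and a median of 0.65. mt-Nd4, a subunit of complex I, was at 13.10, 12.96, 12.94 and 12.86 log2 CPM with corticosterone and 12.15, 12.20, 12.19 and 12.08 with vehicle, and rose by 0.81 ± 0.07. mt-Co1, a catalytic subunit of cytochrome oxidase, rose by 0.74 ± 0.05, mt-Nd1 by 0.59 ± 0.05, mt-Cytb by 0.65 ± 0.06, and mt-Co2 and mt-Co3 by 0.72 ± 0.08 and 0.52 ± 0.09. These transcripts took 8.61 ± 0.414% of CPM with corticosterone and 5.64 ± 0.190% with vehicle (SD, n = 4), and the groups did not overlap (8.16 to 9.15% against 5.40 to 5.81%). The difference had an exact two-sided permutation p = 0.0286, the smallest that 4 against 4 can give. The rise depends on how the libraries are scaled: under quantile normalization 1 of the 11 was called higher, and mt-Co2 and mt-Co3 turned to -0.10 and -0.05. That method gives genes of equal rank equal values, and these are among the most abundant genes of every library. Mitochondrial ribosomal protein genes were higher in 32 of 74 and lower in 1 (none without corticosterone replicate 6), with a median of 0.18. Mrps5 rose by 0.68 ± 0.07.

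Of 13 regulators of mitochondrial biogenesis 2 rose and 1 fell, or 2 fell without corticosterone replicate 6. Ppargc1a, a coactivator of mitochondrial genes, was at 8.54, 8.45, 8.36 and 8.13 log2 CPM with corticosterone and 6.71, 6.75, 6.44 and 6.66 with vehicle, with no overlap and a rise of 1.73 ± 0.12 (adjusted p = 3.9e-12). Esrra, a nuclear receptor that works with it, rose by 0.98 ± 0.06, and Ppargc1b fell by 0.47 ± 0.15, a call that ended without corticosterone replicate 3 (-0.37). Fatty acid oxidation genes rose in 17 of 25, with 2 lower and a median of 0.36. Etfdh, which hands electrons from fat to the chain, rose by 0.79 ± 0.04, and the dehydrogenase gene Acadm by 0.85 ± 0.07.

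Genes of cholesterol synthesis and uptake differed less from vehicle at day 6 than at day 3. These genes share control by sterol-sensing SREBP proteins. Of 25 genes of synthesis and uptake 1 rose, 11 fell and 13 were not called (median -0.14). At day 3, 21 had been lower (median -0.93), where 25.6% of all genes were lower. The day 6 effect was more positive than the day 3 effect for 22 of the 25, where 9.11% of all genes differed between these days in either direction. Cyp51, a sterol demethylase of cholesterol synthesis, was at 6.97, 6.92, 7.17 and 6.95 log2 CPM with corticosterone and 7.50, 7.46, 7.49 and 7.54 with vehicle, with no overlap, and fell by 0.49 ± 0.05. Stard4, a carrier of cholesterol, also fell (-0.74 ± 0.06). Idi1 and Insig1, with day 3 differences of -1.35 and -1.42, were at -0.06 ± 0.08 and -0.14 ± 0.06 and were not called. Insig1 was called with the replicate number as a block (-0.15), with library weights (-0.13), with quantile normalization (-0.16) and without corticosterone replicate 5 (-0.19). Cholesterol efflux genes did not follow this order: of 8 measured 2 rose and 3 fell (median -0.15), against 2 and 2 at day 3 (median 0.00). Abca1 (-1.57 ± 0.16) and Abcg1 (-2.16 ± 0.24), which export cholesterol, fell, and Abcg1, at a low level, was at -1.12 on the log2(CPM + 1) and -0.41 on the log2(CPM + 5) scale. Of 24 genes of fatty acid and lipid synthesis 5 rose and 7 fell, near the shares over all genes. The desaturase gene Scd1 fell by 0.78 ± 0.05, and Plin4, which coats lipid droplets, and Pnpla2, a lipase of lipid droplets, rose by 0.74 ± 0.07 and 0.92 ± 0.09.

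Cell division genes were low in nearly every member measured. Of 31 DNA replication genes 30 fell (median -0.68), and of 31 mitosis and spindle genes 30 fell (median -1.22). Mki67, the proliferation marker, was at 6.62, 6.76, 6.70 and 6.97 log2 CPM with corticosterone and 8.27, 8.20, 8.08 and 8.18 with vehicle, with no overlap and a difference of -1.42 ± 0.07 (adjusted p = 8.8e-15). Tk1, thymidine kinase, was at 4.85, 5.04, 4.80 and 5.14 log2 CPM with corticosterone and 6.18, 6.18, 6.33 and 6.23 with vehicle, and fell by 1.27 ± 0.06. The spindle kinesins Kif20a and Kif11 fell (-1.26 ± 0.06 and -1.25 ± 0.06), and the thymidylate synthase gene Tyms also fell (-1.11 ± 0.05). At day 9 no mitosis gene was lower, 4 were higher and the median was 0.02, where 14.4% of all genes were lower and 14.1% higher. Of 22 G1 cyclins and inhibitors 9 fell and 4 rose, with cyclin E1, Ccne1, lower (-1.15 ± 0.07). Of 30 ribosome biogenesis genes 11 fell and 2 rose (1 without corticosterone replicate 6), and Rrs1 rose by 1.11 ± 0.07. Of 75 cytosolic ribosomal protein genes only 4 were called, all higher, and 2 were called without vehicle replicate 3 or without vehicle replicate 6.

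Inflammatory mediators were low. Of 18 measured 12 fell, 1 rose and 5 were not called, with a median of -1.05. Ccl2, which draws monocytes, was at 2.54, 2.42, 2.87 and 2.81 log2 CPM with corticosterone and 5.20, 5.06, 5.10 and 5.08 with vehicle, and fell by 2.45 ± 0.09. Cxcl10 fell by 1.96 ± 0.07, as did Cxcl12 (-0.94 ± 0.04), with no overlap of the groups. Leukocyte markers moved with these genes: Cd68 fell by 2.18 ± 0.10, as did Csf1r (-0.78 ± 0.29), 2 of the 11 markers on that list, whose summed levels are given above. The groups overlapped for Csf1r, and its call ended without corticosterone replicate 3 or 5 or vehicle replicate 3 or 6 (-0.63, -0.66, -0.76 and -0.65). It also ended in a fit of the day 6 groups alone (adjusted p = 0.0673), with log2(CPM + 1) (-0.23) and with log2(CPM + 5) (-0.06). The part of leukocyte markers in the result was not tested. Of 21 NF-kB pathway genes 12 fell and 2 rose, with falls in the TNF receptor family gene Tnfrsf9 (-2.72 ± 0.18), Nfkb2 (-0.58 ± 0.05) and Nfkbie (-1.19 ± 0.11). On the log2(CPM + 5) scale Tnfrsf9 was at -0.93 and Nfkbie at -0.63. Of 10 prostaglandin synthesis genes 3 rose and 4 fell, with the prostaglandin D synthase gene Hpgds lower (-1.72 ± 0.30, or -1.14 on the log2(CPM + 1) scale).

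Interferon-stimulated genes fell in 24 of 41, with 5 higher and a median of -0.27. Cmpk2, an antiviral nucleotide kinase, was at 1.67, 1.56, 1.35 and 1.51 log2 CPM with corticosterone and 3.21, 3.28, 3.24 and 3.28 with vehicle, and fell by 1.73 ± 0.09. Oasl2 fell by 1.22 ± 0.09. A member went far the other way: Ifi207, of a family of interferon-inducible genes, was at 6.56, 6.44, 6.41 and 5.91 log2 CPM with corticosterone and 2.67, 2.81, 2.72 and 2.63 with vehicle, and rose by 3.62 ± 0.15 (adjusted p = 2.2e-16). Class I and antigen processing genes fell in 12 of 19 (median -0.45), and none rose. H2-T23 fell by 1.36 ± 0.09 after a day 3 value of 0.02, and H2-Q4 also fell (-1.27 ± 0.08). Class I genes resemble each other closely, so that reads may be shared between them.

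Genes of growth factor signalling moved in both directions. Feedback and immediate early genes of the MAP kinases, which are switched on by growth factors and restrain them in turn, fell in 17 of 28 (4 higher, median -0.63). Fosl1 was at 2.63, 2.60, 3.04 and 3.29 log2 CPM with corticosterone and 4.99, 4.84, 5.19 and 5.15 with vehicle, and fell by 2.15 ± 0.12. Phlda1 and the phosphatase gene Dusp4 fell (-2.0 ± 0.12 and -1.68 ± 0.12). Of 12 genes of the EGF receptor and its ligands 4 fell, among them the ligand genes Hbegf (-0.55 ± 0.06) and Tgfa (-0.67 ± 0.07), and 2 rose. TGF-beta and BMP genes were mixed, with 12 higher and 8 lower of 28. The BMP target gene Id3 was at 7.96, 7.83, 7.96 and 7.75 log2 CPM with corticosterone and 6.05, 5.95, 6.3 and 6.24 with vehicle, and rose by 1.74 ± 0.08, and Id1 rose by 1.48 ± 0.11. The ligand genes Bmp4 and Inhbb fell (-1.20 ± 0.09 and -1.58 ± 0.08). Of 27 Wnt genes 4 rose and 11 fell, with the receptor gene Fzd4 higher by 1.79 ± 0.10 and the secreted antagonist genes Sfrp1 and Sfrp2 at -2.18 ± 0.22 and -1.97 ± 0.13. Sfrp1 was at -0.82 on the log2(CPM + 1) and -0.25 on the log2(CPM + 5) scale, and Sfrp2 at -1.61 and -0.96. Of 13 genes of IGF binding and insulin signalling 7 rose and 5 fell, and Irs2, an adaptor of the insulin receptor, rose by 1.02 ± 0.09. Of 14 Hippo pathway targets 5 rose and 4 fell, and Tgfb2 rose by 1.16 ± 0.12.

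Matrix genes were mostly lower, and epithelial junction genes moved in both directions. Of 31 collagens and matrix glycoproteins 21 fell and 1, the proteoglycan gene Dcn (1.26 ± 0.10), rose (median -0.43). Col6a1, a chain of collagen VI, was at 9.02, 9.18, 9.09 and 9.25 log2 CPM with corticosterone and 9.87, 9.89, 9.89 and 9.87 with vehicle, and fell by 0.74 ± 0.04. Of 24 matrix proteases and inhibitors 14 fell and 3 rose, with the protease gene Adamts1 higher by 1.40 ± 0.10. Of 14 integrin genes 6 fell and 1 rose. Of 25 epithelial keratin and junction genes 9 rose and 10 fell. E-cadherin, Cdh1, fell by 1.63 ± 0.13, as did Cdh6 (-1.82 ± 0.09) and the pore-forming claudin gene Cldn2 (-1.96 ± 0.20, or -1.27 on the log2(CPM + 1) scale), while Cldn1, a sealing claudin, rose by 1.13 ± 0.09. Of 6 cornified envelope genes 5 fell and 1 rose.

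Channel genes and genes of secreted products moved in both directions. Of 19 ion channel and pump genes 8 rose and 7 fell, or 4 fell without corticosterone replicate 6. Aqp5, a water channel, was at -2.25, -1.07, -1.44 and -0.87 log2 CPM with corticosterone and 2.77, 2.57, 2.81 and 2.92 with vehicle, with no overlap and a difference of -4.18 ± 0.20 (adjusted p = 2.5e-15), or -2.49 on the log2(CPM + 1) scale, since the corticosterone libraries lie low. Scnn1a, the alpha subunit of the epithelial sodium channel, rose by 1.53 ± 0.13. Of the 41 epididymal secretory and androgen response genes listed 9 were measured, of which 5 rose and 2 fell. Defb1, a beta-defensin, was at 0.02, 0.49, 0.32 and -0.17 log2 CPM with corticosterone and -4.15, -4.15, -4.15 and -3.58 with vehicle, and rose by 4.17 ± 0.39, where vehicle libraries lie at or near the lowest value of the table (1.00 on the log2(CPM + 1) scale). Clu, the chaperone clusterin, fell by 1.19 ± 0.12. Of 22 genes of extracellular vesicles and ESCRT 6 rose and 5 fell, near the 22.9% and 24.3% of all genes, with Smpd3, which makes ceramide for exosomes, higher by 2.25 ± 0.12 and the tetraspanin gene Cd9 lower (-0.69 ± 0.05). Of 20 small RNA processing genes 2 rose and 4 fell, a smaller share than the 47.2% of all genes called, where 2 fell without corticosterone replicate 5, vehicle replicate 3 or vehicle replicate 4. Xpo5, which exports small RNA precursors from the nucleus, fell by 0.27 ± 0.04.

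Among detoxification and iron genes more rose than fell. Of 24 cytochrome P450 and steroid enzymes 14 rose and 6 fell (median 0.51), and of 30 glutathione and antioxidant genes 14 rose and 7 fell (median 0.17). Gclc, the rate-limiting enzyme of glutathione synthesis, was at 8.98, 8.97, 8.94 and 8.64 log2 CPM with corticosterone and 7.45, 7.51, 7.45 and 7.50 with vehicle, and rose by 1.41 ± 0.06. Ugt1a6a, which conjugates small molecules, rose by 1.08 ± 0.07, a gene of a family whose members share exons. Fth1, the ferritin heavy chain that stores iron, was at 12.18, 12.20, 12.17 and 11.90 log2 CPM with corticosterone and 10.73, 10.77, 10.93 and 10.81 with vehicle, and rose by 1.30 ± 0.09, while Steap4, a metal reductase, fell by 2.14 ± 0.15, in a list of 15 with 6 higher and 3 lower. Of 14 retinoid genes 5 rose and 6 fell. Crabp1, a retinoic acid binding protein, rose by 3.35 ± 0.25, or 2.31 on the log2(CPM + 1) and 1.15 on the log2(CPM + 5) scale. Of 8 pentose phosphate genes 3 rose and 3 fell.

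Stress pathways also held both directions. Of 29 genes of the unfolded protein and ATF4 response 16 rose and 8 fell. Mthfd2, of mitochondrial folate metabolism, rose by 1.35 ± 0.11 and asparagine synthetase, Asns, by 0.80 ± 0.05. Of 18 heat shock genes 9 rose and 7 fell, with Hspa1a lower (-1.79 ± 0.17) and the mitochondrial chaperone gene Hspa9 higher by 0.48 ± 0.04. Of 20 p53 targets 8 rose and 6 fell, and Sesn2 rose by 0.85 ± 0.06. Of 30 lysosome genes 8 rose and 9 fell, near the shares over all genes, with the protease gene Ctsl higher by 0.72 ± 0.05. Of 20 amino acid transporter and glutamine genes 9 rose and 5 fell, and Glud1, which feeds glutamate to the tricarboxylic acid cycle, rose by 1.20 ± 0.10.

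Transcription factors and the clock were altered. Of 71 transcription factors 31 rose and 19 fell (median 0.18). Klf13 was at 7.11, 7.03, 6.90 and 6.46 log2 CPM with corticosterone and 5.04, 5.03, 4.96 and 5.04 with vehicle, and rose by 1.86 ± 0.09, Klf15 by 2.06 ± 0.12, Klf9 by 1.60 ± 0.10, Cebpd by 1.15 ± 0.15 and Snai2, a repressor of cadherins, by 1.24 ± 0.14. Nr4a1, an orphan nuclear receptor, fell by 1.34 ± 0.09, as did Nr4a2 (-1.23 ± 0.16), Irf8 (-1.54 ± 0.30, or -0.93 on the log2(CPM + 1) scale) and Twist2 (-0.98 ± 0.14). Aire, known from the thymus, was at -3.35, -2.24, -2.83 and -2.0 log2 CPM with corticosterone and 1.88, 1.83, 2.26 and 2.26 with vehicle. It was lower than vehicle by 4.66 ± 0.37 (-2.14 on the log2(CPM + 1) scale). Its vehicle means were -2.34, -2.62, 2.06 and 4.00 at days 0, 3, 6 and 9. Its corticosterone means were -2.83, -2.60 and -1.29 at days 3, 6 and 9, so from day 3 to day 6 vehicle rose while treated levels stayed low. Of 18 clock genes 9 rose and 7 fell. The day 6 effect was more negative than that of day 3 for 10, where 9.11% of all genes differed between these days in either direction. Per2 rose by 1.09 ± 0.08 and Nfil3 by 1.20 ± 0.09, and Per3 fell by 0.98 ± 0.05 after a day 3 value of 0.02.

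By abundance, the largest losses in CPM were in Pkm, Gapdh, Eno1, Pgk1, Gpnmb, Ldha, Ivns1abp and Fn1, and the largest gains in mt-Co1, mt-Cytb, mt-Nd4, mt-Co2, mt-Nd5, mt-Co3, Fth1 and Aldh1a1. Gapdh, often used to normalize other genes, was at 10.22, 10.27, 10.20 and 10.16 log2 CPM with corticosterone and 11.06, 11.11, 11.26 and 11.34 with vehicle, with no overlap and a difference of -0.98 ± 0.07. Fibronectin, Fn1, fell by 1.38 ± 0.10, and Gpnmb, a lysosomal glycoprotein gene, and Ivns1abp fell (-0.72 ± 0.07 and -0.59 ± 0.07). mt-Nd5 rose by 0.76 ± 0.09.

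The genes with large differences at day 6 shared more calls with day 3 than with day 9. Of the 441 genes at least 2-fold higher at day 6, 409 were among the 3065 called higher at day 3 (23.3% of all genes), and 210 among the 1849 at day 9 (14.1%). Of the 549 at least 2-fold lower, 450 were among the 3364 called lower at day 3 (25.6%), and 266 among the 1887 at day 9 (14.4%). The day 6 effect differed from the day 3 effect for 1196 genes (9.11%), of which 553 were more positive and 643 more negative. It differed from the day 9 effect for 4062 genes (30.9%), of which 1961 were more positive and 2101 more negative. The comparisons of each day use separate libraries.

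Several genes had a more positive effect at day 6 than at the end of treatment. Npr3, the natriuretic peptide clearance receptor, was at 7.63, 7.48, 7.45 and 7.12 log2 CPM with corticosterone and 4.83, 4.86, 4.71 and 4.70 with vehicle, and rose by 2.65 ± 0.09, which was 1.46 ± 0.12 above its day 3 effect of 1.18. Calcrl, which with a partner protein forms the receptor for adrenomedullin, rose by 1.56 ± 0.33 (day 3 0.05), although the groups overlapped. Ptprz1, a receptor phosphatase gene, rose by 1.17 ± 0.11 after -0.19 at day 3. Sox8 had been lower at day 3 (-1.22) and was not called at day 6 (0.11 ± 0.12). Against day 9, the effects on Sgk1, Trim67 and Igfbp3 were larger at day 6 by 5.71, 4.03 and 3.81, and those on Samd5, Siglecg and Prkg2 more negative, with differences of -2.99, -2.33 and -2.41.

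**Figure D4:**
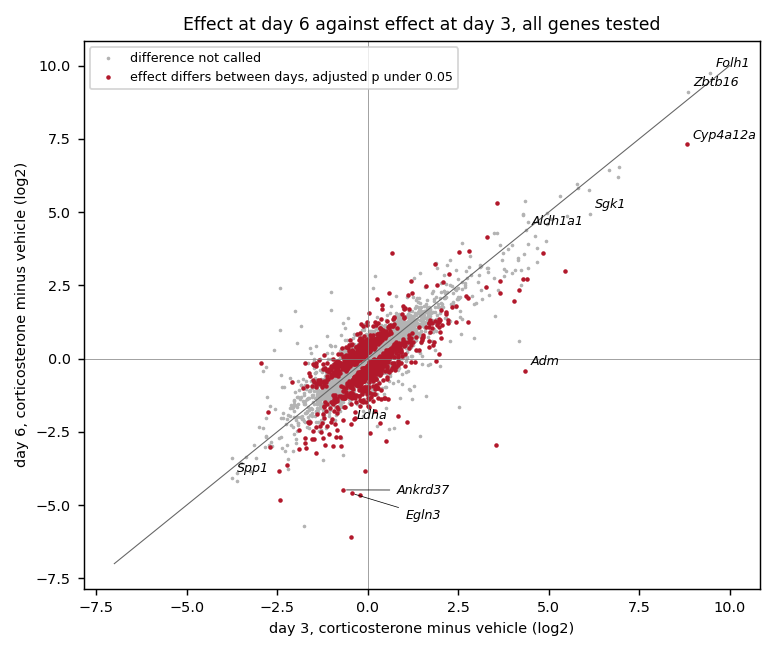
Corticosterone minus vehicle at day 6 against the same at day 3 for each of 13128 genes, on the log2 scale, with the line of equal effects. Red points mark the 1196 genes whose effect differs between the days, and Adm, Egln3 and Ankrd37 lie below the line while Folh1, Zbtb16 and Aldh1a1 lie near it.

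**Figure D5:**
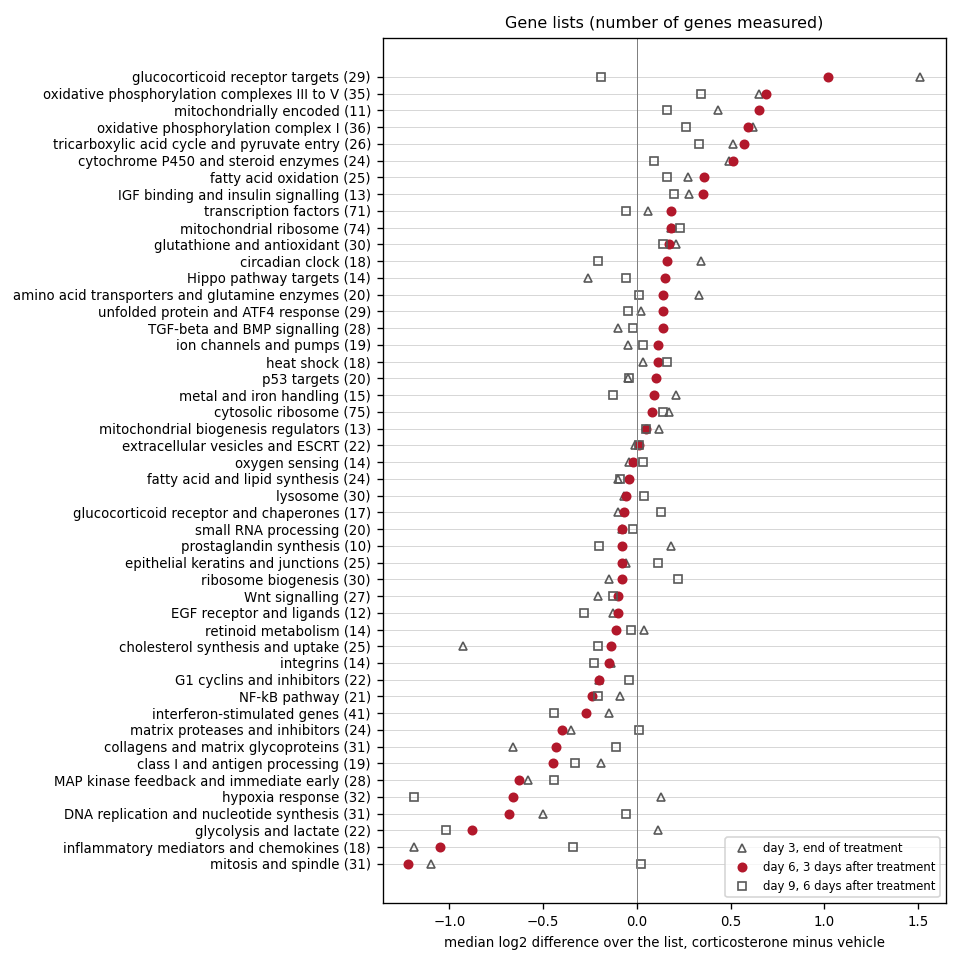
Median log2 difference, corticosterone minus vehicle, of each gene list with at least 10 measured genes at days 3, 6 and 9, sorted by day 6 (number measured in parentheses). The hypoxia list is at 0.13, -0.66 and -1.19 on days 3, 6 and 9 and the glycolysis list at 0.11, -0.88 and -1.02, while the mitosis list is at -1.10, -1.22 and 0.02.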

How the data were processed

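RNA-seq levels of DC2 cells were analysed in 28 libraries, 8 of them from day 6. The deposited table holds log2 CPM (log2 of read counts scaled to library size) for 13129 entries. Per the submitters' processing notes, kallisto, edgeR 3.40.1, limma 3.54.0 and the mm10 build were used. The normalization, prior count, annotation and filter are not given in the sources used here. Depth per library is unknown from these values, so no counting interval is given. Summed CPM was 1.00e+06 to 1.04e+06 in day 6 corticosterone libraries and 973085 to 979351 in vehicle libraries, so values were scaled by more than the total count. The lowest value in the table is -4.15. 1 entry without a symbol (0.0420 to 0.0503% of CPM in day 6 libraries) was left out.

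Differences were tested in limma 3.58.1 (R 4.3.3), with an intensity trend, in 1 fit over all 7 groups (21 residual degrees of freedom) and Benjamini-Hochberg adjustment over all 13128 genes, at adjusted p under 0.05. Requiring 4 or more libraries with a log2 CPM over 0 removed 0 genes. The fit was tested on simulated data. Replicates 3, 5 and 6 occur in both day 6 groups, and deviations of same-numbered libraries correlated at 0.16, 0.13 and 0.11, against -0.25 to 0.23 for different numbers. Every same-number pair was over 0.1, but some different-number pairs were as high or higher, so these correlations cannot decide whether the libraries are paired. The reported fit was unpaired, and the replicate number entered as a block in an alternative fit only. Alternatives were that block, the day 6 groups alone, no trend, robust moderation, library weights, 2 other scalings, 2 other offsets, 2 filters and each library left out.

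Named genes were the 15 largest changes each way with mean log2 CPM of at least 1, the 8 largest in CPM, the 4 smallest p per list, all receptor and chaperone genes, the 6 largest differences from days 3 and 9 each way, and the leading transcription factors. The 15 largest changes each way were also limited to genes whose day 6 groups did not overlap. The comparison and the lists were chosen with earlier results of these data known. Reads may not be fully separated between close paralogs such as Aldh1a1 and Aldh1a7, the Gsta, Cyp4a and Sprr families and class I genes. Some members of the lists are counted but not reported here by name.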

Additional observations from a re-analysis of the deposited data

Results flagged for a closer look

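For the 166 genes named, the 4 libraries of each day 6 group were examined for a library far from the other 3, which chance gives in about 1 group in 20. This occurred in 32 of 332 combinations of gene and group, and corticosterone replicate 6 was the distant library in 21 of them. Its levels, in log2 CPM, were -1.57 for Abcg1, 5.65 for Bnip3, 5.40 for Cldn1, 2.66 for Crabp1, 9.08 for Ctsl, 7.61 for Cycs, 4.41 for Fam162a, 8.32 for Fkbp5, 6.12 for Folh1, 11.90 for Fth1, 8.64 for Gclc, 8.02 for Glud1, 7.02 for Glul, 2.95 for H2-T23, 3.77 for Inhbb, 6.24 for Irs2, 2.22 for Kdr, 5.19 for Klf15, 7.88 for Pdha1, 6.52 for Pnpla2 and 7.20 for Sgk1. In Abcg1, Bnip3, Fam162a and H2-T23 it lay on the far side of the other corticosterone libraries from vehicle, and in the rest of these genes on the side of vehicle. The rule compares the gap with the range of the 4 libraries, so small gaps are flagged too. In Fam162a the other corticosterone libraries were at 4.44 to 4.45 log2 CPM, and in Sgk1 at 9.05 to 9.42. In Aldh1a1 the vehicle libraries other than replicate 4 (7.02) were at 6.97.

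The other distant libraries, in log2 CPM, were 7.02 for Aldh1a1 in vehicle replicate 4, 3.35 for Bmp4 in vehicle replicate 4, -3.58 for Defb1 in vehicle replicate 6, 2.10 for Hsd11b2 in vehicle replicate 3, -0.43 for Igfbp3 in vehicle replicate 6, 5.55 for Kif20a in corticosterone replicate 1, 4.96 for Klf13 in vehicle replicate 5, 0.92 for Ogn in vehicle replicate 5, 3.32 for Ppargc1b in vehicle replicate 5, 8.37 for Ptges3 in vehicle replicate 5 and 7.05 for Xpo5 in vehicle replicate 3.

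The effect of corticosterone also differed between days, by the limma test of the difference. The effect at day 6 minus that at day 3, on the log2 scale, was negative for Adm (-4.78), Egln3 (-4.15), Ankrd37 (-3.80), Bnip3 (-2.79), Pdk1 (-2.59) and Fam162a (-2.53). It was positive for Calcrl (1.51), Npr3 (1.46), Ptprz1 (1.36), Sox8 (1.33), Idi1 (1.29) and Insig1 (1.29).

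The effect at day 6 minus that at day 9 was negative for Samd5 (-2.99), Prkg2 (-2.41), Itgb6 (-2.34) and Siglecg (-2.33). It was positive for Sgk1 (5.71), Zbtb16 (4.46), Folh1 (4.28), Trim67 (4.03) and Igfbp3 (3.81).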

How the results depend on the processing

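The counts of genes at least 2-fold different at day 6 depended on the offset for low values, and the counts of all called genes, among the other fits at the same threshold, moved most with library weights, to 3688 higher and 3813 lower. With log2(CPM + 1), 334 genes were at least 2-fold lower in place of 549, and with log2(CPM + 5) 195 were at least 2-fold higher in place of 441 and 158 lower, since a larger offset shrinks the change of low genes by construction. Of the 166 genes named, the difference of 14 called genes was over 1.5 times smaller with log2(CPM + 1) and that of 44 with log2(CPM + 5). With quantile normalization 1 mitochondrially encoded gene was called higher, and mt-Co2 and mt-Co3 turned to -0.10 and -0.05. Under the stricter filter, which tests fewer genes, the oxygen sensing list had 2 higher, the cornified list 2 lower and the Wnt list 7 lower. With the day 6 groups alone 17 cytosolic ribosome genes and 8 Hippo targets were higher and 7 small RNA processing genes lower, and with library weights 28 cytosolic ribosome genes were higher and 8 small RNA processing genes lower; the cause was not tested. Leaving out each library in turn gave 2733 to 2922 higher and 2902 to 3069 lower genes, 422 to 481 and 511 to 577 of them at least 2-fold, 929 to 1124 that differed from day 3 and 3611 to 4098 from day 9, 2 to 4 cytosolic ribosome genes higher and 2 to 5 small RNA processing genes lower. With the replicate block 2894 genes were higher and 3099 lower, and of the 166 genes named only Insig1 changed its call. The median of all genes was 0.0127 with median centring, against -0.00157 as reported. Depth is unknown, so what it limits could not be computed.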
